A study of Mus musculus with 2 samples.

Results

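The genes of the splicing machinery described here are 67 of the 22605 genes with a coding span in a DNase I hypersensitivity table of mouse M1 cells. They were taken by symbol: SR proteins (*Srsf* followed by a digit, 11 genes), SF3A and SF3B subunits (*Sf3a* and *Sf3b*, 8 genes), small nuclear ribonucleoproteins (*Snrp*, 12 genes), heterogeneous nuclear ribonucleoproteins (*Hnrnp* and *Hnrp*, 20 genes), pre-mRNA processing factors (*Prpf* followed by a digit, 13 genes) and U2 auxiliary factors (*U2af*, 3 genes). For each gene the listed transcript with the most windows was used. M1 is an established line of murine myeloid progenitors, which stop dividing and take on macrophage features when interleukin-6 (IL-6) is added. The study compared open chromatin in M1 cells without IL-6 with that in M1 cells kept in IL-6 for 4 to 5 days, both at passages 15 to 18 and with no other treatment named, in the course of work on distal regulation of *c-myb*. Each condition is 1 library, so none of the differences below has a replicate check and no test between the conditions was possible.

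DHS-seq reads the short fragments that a light DNase I digestion of nuclei releases between neighboring cuts, and open chromatin is cut more readily than closed chromatin. A value in the table is the mean number of reads per 700-bp window over the windows touched by a coding span, that is from the start to the stop codon with introns included. A read counted as 1.0 in the M1 library and as 1.04 in the IL-6 library, a scaling inferred from the deposited values and kept here. The non-overlapping coding spans held 9102320 reads in M1 cells and 8544903 in IL-6-treated cells, or 7.58 and 7.12 reads per window before scaling. Of the myeloid marker genes, 10 of 11 had a row (Spi1 had none under that symbol), with a median of 20.6 reads per window in M1 cells (7.86 to 87.7) and a window of more than 21 reads in 8 of them. The 8 genes of other lineages had a median of 7.08 (3.09 to 22.1), with such a window in 1 of them. In the IL-6 library the myeloid markers were lower too, with a median log2 ratio of -0.86. Of these 10 markers, 9 were below 0, against 9990 of all 22605 genes. A fall of at least 2-fold was seen in 3 of them, against 13.4% of all genes with more than 21 reads. Of the 8 genes of other lineages, whose median was 0.47, 7 were above 0, against 12615 of all 22605 genes. The part of these marker genes in the results below was not tested.

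Introns are removed by the spliceosome, which is built anew on each intron from small nuclear ribonucleoprotein particles (snRNPs) and many further proteins. U1 marks the 5′ splice site, U2AF and the U2 particle with its SF3A and SF3B subunits mark the 3′ splice site and the branch point, and the U4/U6.U5 particle with its PRPF proteins brings the complex to catalysis. SR proteins mostly bind exonic enhancers and help to define exons, whereas hnRNP proteins coat nascent RNA and often favor skipping. These genes are expressed in nearly every cell, and many have promoters rich in CpG dinucleotides.

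Sequences at the annotated starts of 6 of these genes are given first, since the results turn on the windows that hold them. Each runs from 200 bases before to 20 bases from the start, 5′ to 3′ on the strand of the gene, read from NCBIM37. Capitals mark matches, on either strand, to the NF-Y box CCAAT (in reverse ATTGG), the GC box GGGCGG (in reverse CCGCCC), the ETS motif CCGGAAG, the NRF1 core GCATGCGC, the TATA box TATAAA, the YY1 motif AAGATGGCG, the full CRE TGACGTCA, the E-box CACGTG and the element TCTCGCGA. The first 5 starts lie in windows with strong M1 signal. They are those of *Hnrnpl* (chr7:29595709-29595928, plus strand, 16 CpG), *U2af1l4* (chr7:31348140-31348359, plus strand, 20 CpG), *Sf3b5* (chr10:12728056-12728275, plus strand, 13 CpG), *Srsf7* (chr17:80606610-80606829, minus strand, 23 CpG) and *Snrpe* (chr1:135506849-135507068, minus strand, 19 CpG). The last, with little signal, is that of *Prpf40b* (chr15:99133514-99133733, plus strand, 3 CpG). For *Prpf40b* and *Hnrnpl* this is a start inside the first window and not that of the listed transcript, which lies upstream of the windows, at 99125702 on chromosome 15 and at 29593560 on chromosome 7.
Hnrnpl: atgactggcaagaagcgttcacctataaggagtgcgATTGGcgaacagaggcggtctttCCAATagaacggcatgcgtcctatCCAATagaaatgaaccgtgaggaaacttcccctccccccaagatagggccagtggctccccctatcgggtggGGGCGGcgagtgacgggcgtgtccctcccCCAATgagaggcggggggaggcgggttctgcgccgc
U2af1l4: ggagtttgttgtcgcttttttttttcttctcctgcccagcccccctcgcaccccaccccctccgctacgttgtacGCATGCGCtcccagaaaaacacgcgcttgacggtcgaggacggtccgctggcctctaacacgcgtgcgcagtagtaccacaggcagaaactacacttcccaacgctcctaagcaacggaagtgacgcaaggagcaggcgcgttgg
Sf3b5: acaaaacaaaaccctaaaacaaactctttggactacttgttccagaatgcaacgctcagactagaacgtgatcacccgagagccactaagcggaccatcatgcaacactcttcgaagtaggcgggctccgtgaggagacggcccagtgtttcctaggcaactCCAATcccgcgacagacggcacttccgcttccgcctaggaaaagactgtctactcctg
Srsf7: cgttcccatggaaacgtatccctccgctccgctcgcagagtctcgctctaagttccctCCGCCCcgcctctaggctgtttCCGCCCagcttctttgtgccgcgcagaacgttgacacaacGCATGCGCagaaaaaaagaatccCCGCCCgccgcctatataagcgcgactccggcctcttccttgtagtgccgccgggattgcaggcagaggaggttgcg
Snrpe: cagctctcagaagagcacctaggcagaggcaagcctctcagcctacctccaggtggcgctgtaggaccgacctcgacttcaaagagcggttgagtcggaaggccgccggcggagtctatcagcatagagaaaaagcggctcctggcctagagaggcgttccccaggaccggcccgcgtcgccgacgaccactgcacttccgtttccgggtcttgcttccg
Prpf40b: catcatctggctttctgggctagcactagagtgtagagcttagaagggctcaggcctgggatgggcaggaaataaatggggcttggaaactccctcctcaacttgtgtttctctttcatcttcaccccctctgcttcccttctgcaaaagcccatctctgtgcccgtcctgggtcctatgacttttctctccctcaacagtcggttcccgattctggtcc

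Splicing genes had more DNase I signal than the average gene in untreated M1 cells and about the average after IL-6. Their median was 12.7 reads per window in M1 cells (0.5 to 327), against 7.75 over all genes, and 7.97 in IL-6-treated cells (0.0 to 84.1), against 8.14 over all genes. The log2 ratio of IL-6-treated over untreated cells, with 0.5 reads added to each library, had a median of -0.96 over the 67 genes and of 0.05 over all 22605 genes. It was below 0 for 59 genes and above 0 for 8, from -2.40 for *Hnrnpa3* to 0.60 for *Snrpn*. Over all 22605 genes it was below 0 for 9990 and above 0 for 12615. More than 21 reads over the whole span, in at least 1 of the libraries, were present for 65 genes, all but *Hnrnpf* and *Hnrnph2*. The study's methods use that number for a single hypersensitive site, so a span that passes it need not hold such a site. Of these 65, 32 (49.2%) were at least 2-fold lower in the IL-6 library and 0 were higher by that much. Over all 18472 genes with that many reads the shares were 13.4% and 1.71%.

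These directions hold relative to the scaling of the table. Leaving the scaling out, or taking the total of the spans or the median gene instead, gave 30 to 33 of 65 genes at least 2-fold lower. These were 46.2% to 50.8%, against 12.6% to 14.5% of all genes. A scaling on single windows with more than 21 reads in both libraries, added after the data were seen, multiplied the IL-6 library by 3.68 and turned the median of the 67 genes to 0.87, with 0 genes lower and 27 higher, where 84.8% of all genes became at least 2-fold higher. Whether the strong sites or the bulk of the spans are the level to hold fixed cannot be told apart with 1 library per condition.

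**Figure D1:**
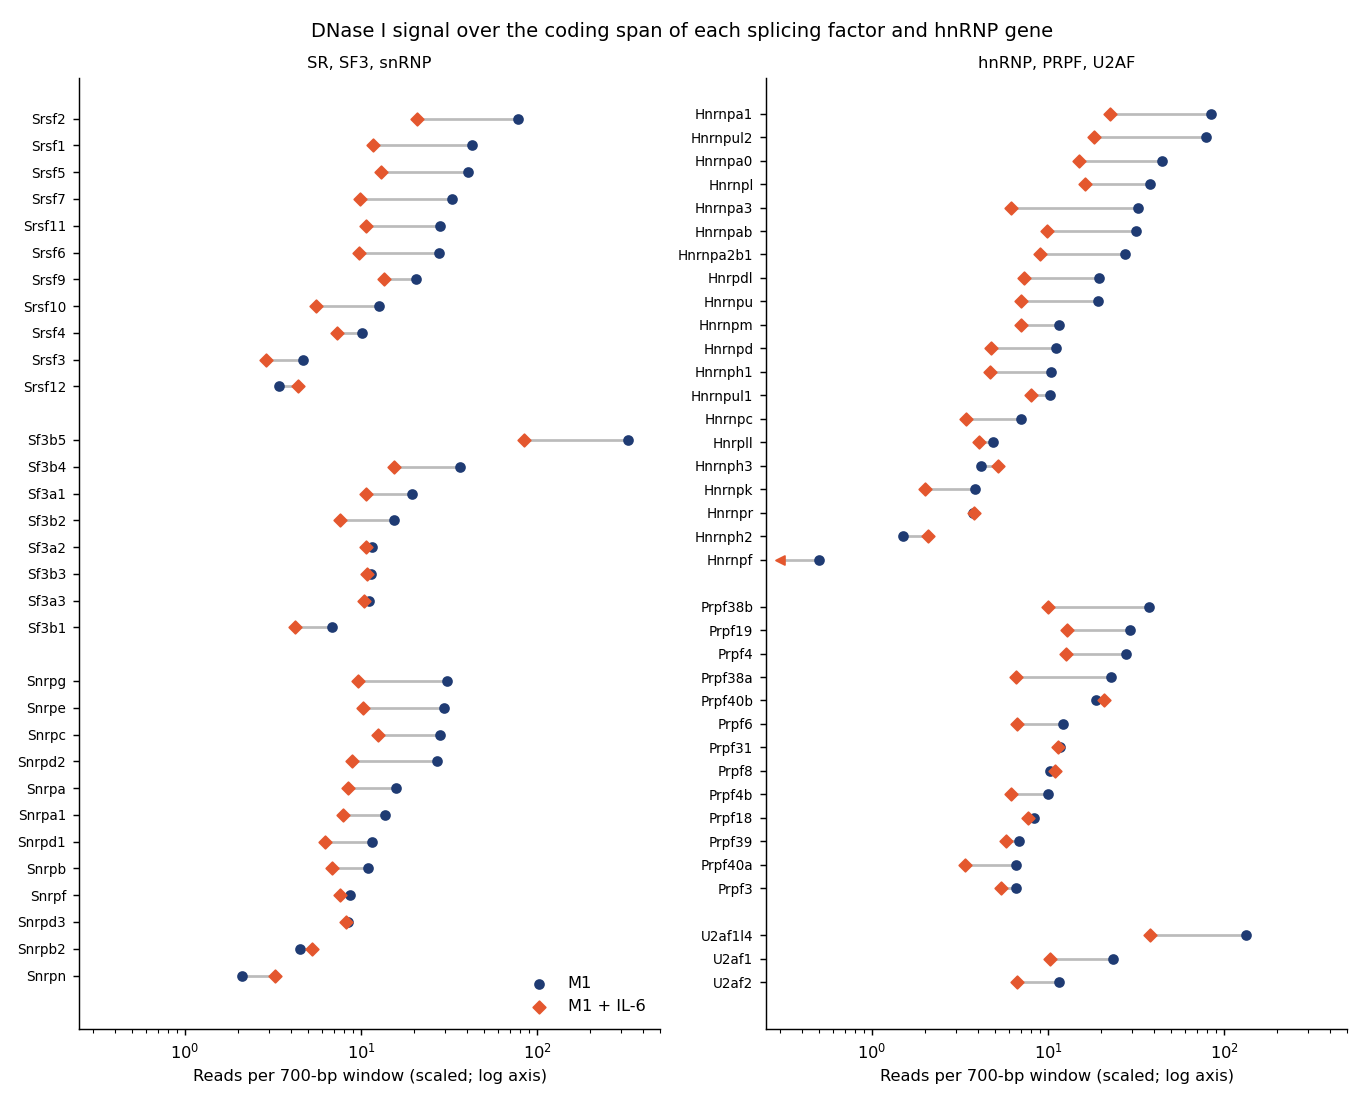
Mean reads per 700-bp window over the coding span of each of the 67 genes (log axis), with circles for M1 cells and diamonds for IL-6-treated cells, the latter on the scaling of the table; the triangle for Hnrnpf stands for 0 reads, placed at the left edge. Points are single libraries, so there are no error bars. In 59 genes the diamond or triangle lies left of the circle, from Sf3b5 with 327 and 84.1 to genes such as Prpf31 with nearly equal values. Over all 22605 genes the log2 ratio is below 0 for 9990. Under a scaling on strong single windows most of the directions of the splicing genes turn.

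The mean and SD over windows limit how many reads the strongest window of a span can hold. In M1 cells 48 of the 67 genes must have had a window with more than 21 reads, or 71.6%, and in IL-6-treated cells 24, or 35.8%. Over all genes the shares were 35.0% without and 17.6% with IL-6. The share among splicing genes was the larger one with and without IL-6.

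The snRNP proteins are the fixed parts of the particles that recognize the splice sites. Their 12 genes had a median of 12.5 reads per window in M1 cells and 8.08 in IL-6-treated cells, with a median log2 ratio of -0.83. Of the 12, 4 were at least 2-fold lower, or 33.3%, against 13.4% of all genes with more than 21 reads. The 4 were *Snrpg*, *Snrpe* and *Snrpd2*, which encode Sm proteins of the ring shared by the snRNPs, and *Snrpc*, which encodes a protein of the U1 particle. *Snrpg* had 338 reads over 11 windows in M1 cells and 102 in IL-6-treated cells, a ratio of 0.313 (95% interval 0.249 to 0.392). *Snrpe* had 296 and 98 reads over 10 windows, a ratio of 0.344 (0.271 to 0.433). *Snrpc* had 477 and 203 reads over 17 windows, a ratio of 0.442 (0.373 to 0.522). All 3 were lower in the IL-6 library by more than the counting error. These intervals are Clopper-Pearson intervals that cover counting error only and compare the libraries, not the conditions. The Sm genes were not alike, as *Snrpd3* had 201 and 190 reads over 24 windows, a ratio of 0.981 (0.801 to 1.20), and *Snrpf* had 78 and 66 reads over 9 windows, a ratio of 0.878 (0.623 to 1.24). The windows of these latter genes lie 1114 bp and 51 bp from the nearest annotated start of the gene. *Snrpb2*, for a U2 protein, had 45 and 51 reads and a log2 ratio of 0.23. *Snrpn*, an imprinted gene whose product SmN replaces SmB in neurons, had 17 and 25 reads over 8 windows, and the windows of its span begin 16542 bp from the nearest annotated start.

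U2AF is the heterodimer that binds the 3′ splice site. *U2af1l4*, a paralog of the small subunit gene, had 395 reads over 3 windows in M1 cells and 109 in IL-6-treated cells, a ratio of 0.286 (0.230 to 0.355), and its M1 mean of 132 reads per window stood at the 98.9 percentile of all genes. *U2af1*, for the small subunit that contacts the terminal AG of the intron, had 417 and 178 reads over 18 windows, a ratio of 0.443 (0.370 to 0.529). *U2af2*, for the large subunit that binds the polypyrimidine tract, had 298 and 166 reads over 26 windows, a ratio of 0.578 (0.475 to 0.702). All 3 were lower in the IL-6 library, 2 of them by at least 2-fold (66.7%, against 13.4% of all genes). The ratio was lowest where the span was shortest.

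The SF3A and SF3B proteins hold U2 at the branch point. Their 8 genes had medians of 13.4 and 10.6 reads per window and a median log2 ratio of -0.79. *Sf3b5*, for the smallest subunit of the SF3B complex, has its whole coding sequence in 1 window (chr10:12728101-12728800) that also holds its annotated start. This window had 327 reads in M1 cells and 81 in IL-6-treated cells, a ratio of 0.257 (0.199 to 0.329), and the mean was at the 99.8 percentile of all genes in M1 cells. *Sf3b4* had 256 and 103 reads over 7 windows (ratio 0.418, 0.329 to 0.527) and *Sf3b2* had 474 and 226 reads over 31 windows (ratio 0.495, 0.421 to 0.581). These 3 were at least 2-fold lower, or 37.5%, against 13.4% of all genes with more than 21 reads. The other 5 were within 2-fold. The longest span, that of *Sf3b1*, which encodes the subunit that clasps the branch point helix, had 398 and 236 reads over 58 windows, a log2 ratio of -0.70. *Sf3a2*, *Sf3a3* and *Sf3b3* were nearly level, with log2 ratios of -0.12, -0.09 and -0.07.

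The PRPF proteins include the core of the U4/U6.U5 particle and proteins that join it on the way to catalysis. Their 13 genes had medians of 11.7 and 7.66 reads per window and a median log2 ratio of -0.70. Of the 13, 4 were at least 2-fold lower, or 30.8%, against 13.4% of all genes with more than 21 reads. *Prpf38b* had 445 and 115 reads over 12 windows (ratio 0.268, 0.217 to 0.330), and *Prpf38a*, which encodes a protein of the complex that precedes activation, had 479 and 132 reads over 21 windows (ratio 0.286, 0.234 to 0.348). *Prpf19*, for a ubiquitin ligase needed to activate the spliceosome, had 435 and 184 reads over 15 windows (ratio 0.439, 0.368 to 0.523). *Prpf4*, for a protein of the U4/U6 particle, had 612 and 267 reads over 22 windows (ratio 0.453, 0.391 to 0.524). In contrast, *Prpf8*, for the large protein at the catalytic center of U5, had 329 and 337 reads over 32 windows, a ratio of 1.06 (0.911 to 1.24). *Prpf40b*, related to a U1-associated yeast protein, had 372 and 400 reads over 20 windows, a ratio of 1.12 (0.967 to 1.29). The intervals of both include 1. *Prpf31* also was level, with 187 and 175 reads.

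SR proteins carry an arginine- and serine-rich domain and bind exonic enhancers. Their 11 genes had medians of 27.8 and 9.92 reads per window and a median log2 ratio of -1.38. Of the 11, 7 were at least 2-fold lower, or 63.6%, against 13.4% of all genes with more than 21 reads. *Srsf2* had 311 and 80 reads over 4 windows, a ratio of 0.267 (0.206 to 0.342), and *Srsf1*, the founding member of the family, had 171 and 45 reads over 4 windows, a ratio of 0.273 (0.192 to 0.381). *Srsf7* had 295 and 86 reads over 9 windows, a ratio of 0.303 (0.235 to 0.386). *Srsf5*, *Srsf6*, *Srsf11* and *Srsf10* were the other 4, with log2 ratios of -1.64, -1.5, -1.38 and -1.19. *Srsf9* and *Srsf4* were lower by less, with log2 ratios of -0.60 and -0.46, and *Srsf3* had only 42 and 25 reads over 9 windows (ratio 0.618, 0.361 to 1.04). The exception in direction was *Srsf12*, with 113 reads in M1 cells and 140 in IL-6-treated cells over 33 windows, a ratio of 1.29 (0.997 to 1.66). Its M1 mean of 3.42 reads per window was the lowest of the SR genes.

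The hnRNP genes had medians of 11.3 and 6.57 reads per window and a median log2 ratio of -1.23. Of 18 with more than 21 reads, 12 were at least 2-fold lower, or 66.7%, against 13.4% of all such genes. Among the genes of the A and B type proteins, which bind exonic and intronic silencers, *Hnrnpa1* had 507 and 129 reads over 6 windows (ratio 0.264, 0.216 to 0.321). *Hnrnpa3* had 292 and 53 reads over 9 windows, and its ratio of 0.188 (0.138 to 0.253) was the lowest of the 65 splicing genes with more than 21 reads. *Hnrnpa2b1* had 274 and 86 reads over 10 windows (ratio 0.326, 0.253 to 0.417), *Hnrnpa0* 132 and 43 over 3 windows (ratio 0.338, 0.234 to 0.480), and *Hnrnpab* 377 and 113 over 12 windows (ratio 0.311, 0.250 to 0.385). The whole A and B type group was therefore at least 2-fold lower in the IL-6 library.

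*Hnrnpul2*, related to the scaffold attachment protein hnRNP U, held the most reads of all 67 genes, with 1330 in M1 cells and 297 in IL-6-treated cells over 17 windows, a ratio of 0.232 (0.204 to 0.263). At least 1064 of its M1 reads were in 1 window. *Hnrnpu* itself had 365 and 129 reads over 19 windows (ratio 0.367, 0.298 to 0.450), and *Hnrnpul1* had 485 and 361 over 47 windows (ratio 0.773, 0.672 to 0.887). *Hnrnpl*, for a protein that binds CA-rich RNA, had 646 and 266 reads over 17 windows (ratio 0.427, 0.369 to 0.494). Its paralog *Hnrpll*, known for the splicing of CD45 in lymphocytes, had 222 and 180 over 46 windows (ratio 0.842, 0.688 to 1.03). *Hnrnpd*, for the AU-rich element binding protein AUF1, had 267 and 109 reads over 24 windows (ratio 0.424, 0.336 to 0.532), and its paralog *Hnrpdl* had 97 and 35 over 5 windows (ratio 0.375, 0.247 to 0.557). *Hnrnph1* and *Hnrnpc* completed the 12, with log2 ratios of -1.15 and -1.03. *Hnrnpr* was level with 142 and 139 reads over 38 windows, and *Hnrnph3*, with 29 and 35 reads over 7 windows, had a log2 ratio of 0.32.

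The sequence of some spans occurs more than once in the genome. Of the 32-bp sequences starting in the windows of a gene, a median of 94.8% were found once in NCBIM37, but 3.71% for *Hnrnpf* and 28.9% for *Hnrnph2*. These were the genes with the fewest reads, *Hnrnpf* with 1 in M1 cells and 0 in IL-6-treated cells and *Hnrnph2* with 3 and 4. Within the coding exons fewer than 50% of the sequences were single copy in 19 genes. The lowest shares were 0.0% for *Snrpg*, 1.46% for *Srsf3*, 2.39% for *Hnrnpf*, 3.02% for *Hnrnpa3*, 5.33% for *U2af1* and 10.9% for *Hnrnpa1*. How reads with several matches were placed is not given in the sources used here, so levels of these genes are uncertain, and the part of repeated sequence in the low counts was not tested. Without the genes under 50% over their windows and the 2 that share windows with another listed gene (*Srsf11* with *Lrrc40*, *Hnrnpab* with *Agxt2l2*), 30 of 63 genes were at least 2-fold lower. That is 47.6%, against 13.4% of all genes with more than 21 reads.

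The ratio went with the amount of signal, in the splicing genes as in the whole table. With a summed mean of both libraries under 10 reads per window, the median log2 ratio was 0.02 in 11 splicing genes and 0.33 in all genes. At 10 to 20 it was -0.70 in 18 splicing genes and 0.18 in all genes, and at 20 to 40 it was -1.01 in 21 splicing genes and -0.10 in all genes. At 40 to 80, 12 of 12 splicing genes were at least 2-fold lower, with a median of -1.59, against 46.6% of all genes and a median of -0.94. From 80 upward it was 5 of 5, with a median of -1.92, against 93.1% and a median of -1.76. The medians of the splicing genes lay below those of all genes in every class, by least at the strongest signal. Signal level was not tested as an account of the difference.

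**Figure D2:**
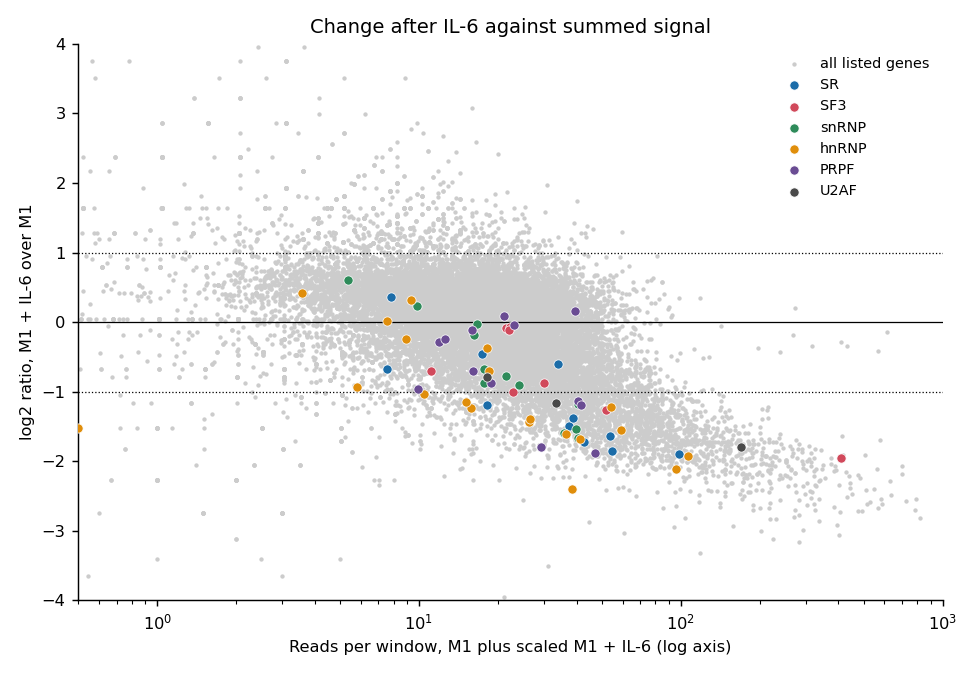
The log2 ratio of IL-6-treated over untreated M1 cells against the summed reads per window (log axis) for all listed genes (gray) and the 67 splicing genes (colored by group), with dotted lines at 2-fold. At a summed mean of 80 or more, all 5 splicing genes are at least 2-fold lower on the scaling of the table, as are 93.1% of all genes there; a scaling on strong single windows moves every point up by 1.83.

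Among splicing genes the M1 signal was higher in shorter spans, while the ratio followed span length less evenly. The 10 splicing genes with up to 5 windows had a median of 35.3 reads per window in M1 cells and a median log2 ratio of -1.57, against 6.0 and 0.05 for all genes of that length. The 14 genes with 6 to 10 windows had 23.9 reads per window and a log2 ratio of -0.97, and the 19 with 11 to 20 windows had 18.6 and -1.17. In the 17 genes with 21 to 40 windows the values were 10.3 and -0.46, and in the 7 with more than 40 windows 10.3 and -0.70, with 0 of the 7 at least 2-fold lower, against 1.63% of all genes of that length. Over all genes the M1 medians of the classes from 6 to 10 windows upward were 10.8, 10.7, 9.72 and 6.63. The log2 ratios of these classes were 0.01, -0.05, -0.07 and 0.16. Signal of short spans was therefore the highest among splicing genes, which was not so over the whole table.

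Coding spans begin at the start codon, so that a promoter is included only where the first window reaches it. An annotated start of the gene lay in the first window for 49 of the 67 splicing genes, or 73.1%, and for 68.6% of all genes. The 49 genes had a median of 19.4 reads per window in M1 cells and 9.63 in IL-6-treated cells, and a median log2 ratio of -1.18, with 29 (59.2%) at least 2-fold lower. The other 18 had medians of 6.91 and 5.52, a median log2 ratio of -0.12, and 3 of the 16 with more than 21 reads (18.8%) were at least 2-fold lower. Over all genes with and without a start in the first window the medians were 8.0 and 7.31 reads per window in M1 cells, and 0.04 and 0.16 on the log2 scale, and 17.5% and 5.28% were at least 2-fold lower. Splicing genes without a start in the first window were thus at the level of other genes in M1 cells.

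The 3 exceptions were *Hnrnpul2*, *Snrpd2* and *Hnrnpc*. The windows of *Hnrnpul2* begin 310 bp and those of *Snrpd2* begin 30 bp from the nearest annotated start, whereas the distance is 19279 bp for *Hnrnpc*, which had 98 and 46 reads. In the opposite class, *Srsf12* and *Prpf40b* were the 2 genes with a start in the first window and a log2 ratio above 0. In 8 genes the first window also held the start of another protein-coding gene, such as *Psenen* at *U2af1l4*, *Mfsd11* at *Srsf2*, *Orc1* at *Prpf38a* and *Ccdc157* at *Sf3a1*, and the reads of the 2 genes there cannot be told apart.

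**Figure D3:**
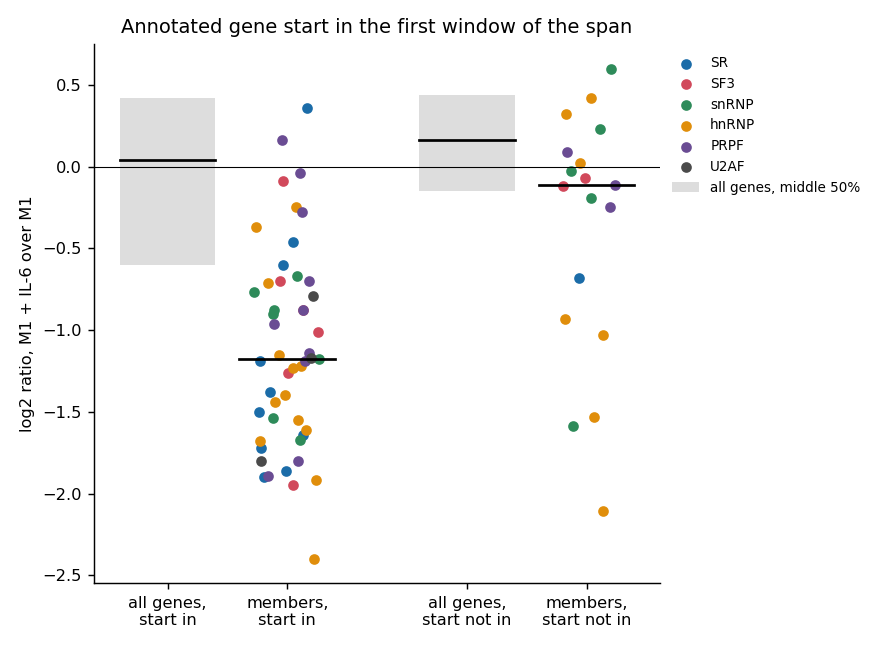
The log2 ratio of IL-6-treated over untreated M1 cells for genes with and without an annotated start in the first window of the span; points are splicing genes colored by group, black lines are medians and gray boxes span the middle 50% of all genes. Medians of the splicing genes are -1.18 with the start and -0.12 without it on the scaling of the table; a scaling on strong single windows adds 1.83 to every value.

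Transcripts of a gene that begin or end at different windows allowed the reads of single stretches to be taken by difference, for 34 of the 67 genes. In 15 of these the first stretch had 1 to 6 windows, held an annotated start and had, like the rest of the span, more than 21 reads over both libraries together. The first stretches had a median of 57.0 reads per window in M1 cells and 13.2 in IL-6-treated cells, and the rest of the same spans had 10.7 and 6.49. The log2 ratio was -2.07 in the first stretches and -0.49 in the rest, with a median difference of -1.5 within a gene. The first stretch was at least 2-fold lower in 13 of 15 genes and the rest in 3 of 15, where 1636 genes of the whole table with such stretches gave 57.6% and 7.89%. It had the lower log2 ratio of the pair in 14 of 15 genes (93.3%), against 78.4% over all such genes, and the higher M1 mean in 14 of 15, against 79.6%. The median difference over all such genes was -0.98. This difference between parts of 1 span does not depend on the scaling between the libraries.

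*Hnrnpl* had the strongest first stretch. Its first window (chr7:29595301-29596000) holds an annotated start of the gene, though not that of the listed transcript. This window had 369 reads in M1 cells and 68 in IL-6-treated cells, a ratio of 0.191 (0.145 to 0.248). The other 16 windows had 277 and 198 reads, a ratio of 0.742 (0.615 to 0.894), and the 10 windows at the 3′ end alone had 153 and 144. The first window was thus the more strongly reduced part, as the intervals of both parts do not overlap.

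The same order was seen in *U2af1l4*, whose 3 windows could each be read. The first (chr7:31348101-31348800) had 351 and 79 reads, the middle one 36 and 17, and the last one 8 and 13. In *Snrpe* the first window (chr1:135506701-135507400) had 190 and 48 reads, the next 2 windows 75 and 16, the following 4 windows 16 and 20, and the last 3 windows 15 and 14. *Srsf7* had 221 and 47 reads in its first window and 74 and 39 in the other 8. *Srsf1* had 100 and 17 reads in its first window and 71 and 28 in the other 3. In *Hnrpdl* the first window had 57 and 10 reads and the other 4 had 40 and 25. In these genes the first window held most of the M1 reads and had the lower ratio, although for *Snrpe* and *Srsf1* the intervals of the first window and of the remaining windows overlap.

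Several longer first stretches also had a lower ratio than the rest of their spans. *Hnrnpab* had 313 and 61 reads in its first 6 windows, a ratio of 0.202 (0.151 to 0.267), and 64 and 52 in the other 6, a ratio of 0.844 (0.574 to 1.24). *Snrpg* had 321 and 76 reads in its first 6 windows and 17 and 26 in the other 5, the largest difference of the 15 genes at -2.67 on the log2 scale. *Hnrnpd* had 160 and 36 reads in its first 3 windows and 107 and 73 in the other 21. *Srsf11*, whose first stretch of 8 windows is longer than the limit of 6 used above, had 766 and 190 reads there and 72 and 74 in its last 8 windows. The listed transcripts with the fewest windows gave log2 ratios above 0 for *Srsf11* (0.09), *Hnrnpd* (0.75), *Snrpg* (0.65) and *Srsf9* (0.27), but ratios below 0 for *Srsf7* (-0.86), *Hnrnpl* (-0.72) and *Snrpe* (-2.14), the last over the 2 windows after the first one. The exception among the 15 genes was *Srsf2*, where the first 2 windows had 282 and 73 reads and the other 2 had 29 and 7, with nearly equal ratios of 0.269 and 0.251.

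**Figure D4:**
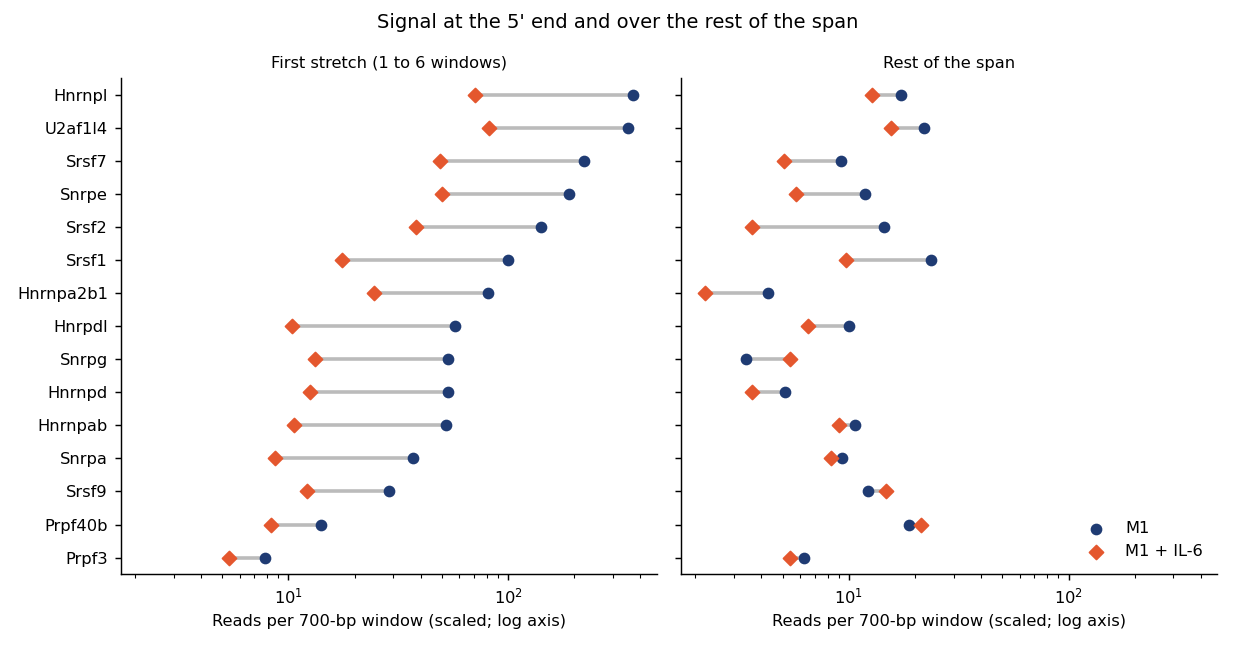
Reads per 700-bp window (log axis) in the first stretch of 1 to 6 windows (left) and in the rest of the span (right) of the 15 genes, with circles for M1 cells and diamonds for IL-6-treated cells on the scaling of the table. Points are single libraries. The first stretches run from 7.83 (Prpf3) to 369 (Hnrnpl) reads per window in M1 cells, and the wide gaps between circle and diamond on the left are narrower or turned on the right in all genes but Srsf2; a scaling on strong single windows moves all diamonds right by the same distance.

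**Figure D5:**
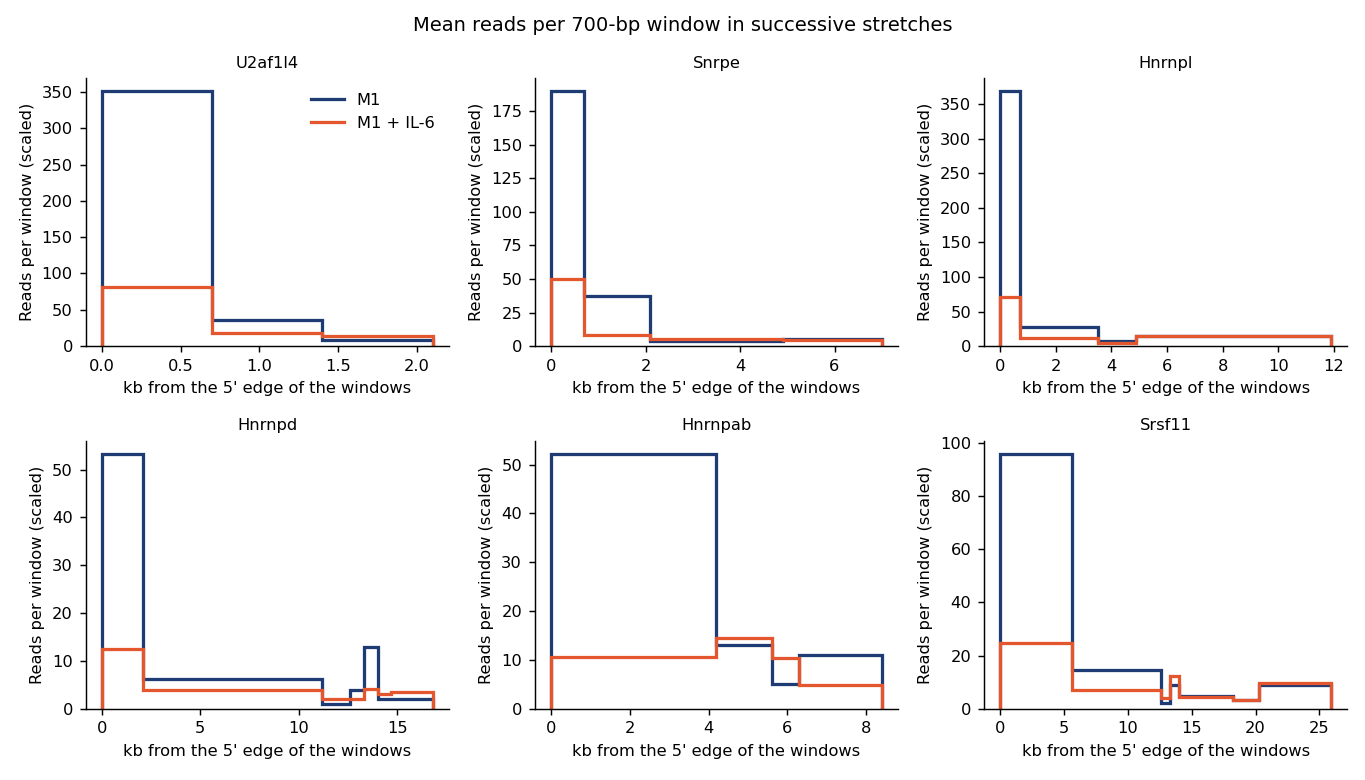
Mean reads per window in successive stretches of 6 spans, plotted against the distance in kb from the 5′ edge of the first window, for M1 cells (blue) and IL-6-treated cells (orange, on the scaling of the table). In all 6 genes the M1 line is highest in the first stretch, from 52.2 reads per window in Hnrnpab to 369 in Hnrnpl, and downstream stretches are lower. In the last stretch the lines lie close together in Hnrnpl, with 15.3 and 14.9 reads per window, but not in Hnrnpab, where they stand for 33 and 14 reads over 3 windows.

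In genes that were level or higher in the IL-6 library and whose stretches could be read, the first stretch had at most 14.0 reads per window in M1 cells. *Srsf12* had 2 and 5 reads in the window that holds its start and 111 and 135 in the other 32. *Prpf40b* had 14 and 8 reads in its first window and 358 and 392 in the other 19, which at 18.8 reads per window in M1 cells was above the median of all genes. In *Prpf8*, whose first window holds no annotated start, the first 13 windows had 162 and 123 reads, a ratio of 0.788 (0.618 to 1.00), and the other 19 had 167 and 214, a ratio of 1.33 (1.08 to 1.64). *Prpf3*, with a start in its first 6 windows, had 47 and 31 reads there and 168 and 140 in the other 27, so that neither part was strong. *Hnrnpr* had 13 and 4 reads in its first 4 windows, a ratio of 0.319 (0.0759 to 1.03), and 129 and 135 in the other 34, a ratio of 1.09 (0.847 to 1.39), and so had the lower ratio at the 5′ end without a strong signal there. *Snrpb2* had 32 and 40 reads in its first 7 windows and 13 and 11 in the other 3, and *Hnrnph3* had 10 and 11 in its first 3 and 19 and 24 in the other 4. *Sf3a2* had 28 and 18 reads in its first 3 windows and 41 and 43 in the other 3.

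The starts of the listed transcripts were compared in sequence with those of all genes, over the same 220 bases. Splicing genes had a median of 18.0 CpG dinucleotides (1 to 38) and 59.5% G and C, against 9.0 and 55.9% for 22587 genes, and a median ratio of observed to expected CpG of 0.93 against 0.54. A CCAAT box, bound by NF-Y, was present in 47.8% against 31.8% of all starts, and the GC box GGGCGG in 52.2% against 40.6%. The ETS motif CCGGAAG was present in 22.4% against 9.21%, in 15 genes that include *Srsf11*, *Hnrnpd*, *Snrpg*, *Sf3b2* and *Hnrnpul2*. The element TCTCGCGA was present in 5.97% against 1.19%, in *Srsf4*, *Snrpg*, *Hnrnph3* and *Hnrnpk*. A TATAAA box was present in 7.46% against 10.7%. The remaining motifs were present at 2.99% against 2.89% for GCATGCGC (NRF1), 1.49% against 0.996% for AAGATGGCG (YY1), 2.99% against 2.10% for TGACGTCA (CRE) and 8.96% against 6.16% for CACGTG (E-box). Both strands were read, each motif was counted by itself, and matches of different motifs could overlap. A match is a description of the letters only. In the sequences given above, *Srsf7* has GGGCGG and GCATGCGC, *U2af1l4* has GCATGCGC, *Sf3b5* has CCAAT and *Snrpe* has none of the 9. The 2 genes shown at another start differ between their starts. *Prpf40b* has none of the 9 in the sequence given above, but both CCAAT and GGGCGG as well as 25 CpG at the start of its listed transcript. *Hnrnpl* has CCAAT and GGGCGG in the sequence given above, but none of the 9 and 4 CpG at the start of its listed transcript.

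Other genes of the pathway were counted by lists. There were 41 further core spliceosome genes with a row (Lsm8 had none under that symbol). Of these, 14 (34.1%) were lower by at least 2-fold and 0 higher by as much, against 13.4% and 1.71% of all genes. The 41 genes had a median log2 ratio of -0.59 and a median of 19.5 reads per window in M1 cells. *Lsm4*, for a protein of the U6-binding ring, had 1478 and 393 reads over 8 windows (ratio 0.276, 0.246 to 0.309), and *Sf1*, for the protein that first binds the branch point, had 583 and 174 over 19 windows (ratio 0.310, 0.260 to 0.368). All 5 genes of the exon junction complex had log2 ratios below 0, against 9990 of all 22605 genes. The 5 genes had a median of -1.27, and 4 were at least 2-fold lower, against 13.4% of all genes. Of 53 splicing regulators with a row (Ptbp3 had none under that symbol), 12 were at least 2-fold lower (22.6%, against 13.4% of all genes). The 53 regulators had a median log2 ratio of -0.22 at 8.32 reads per window in M1 cells. *Ptbp1*, for the polypyrimidine tract binding protein, had 1796 and 402 reads over 13 windows (ratio 0.232, 0.208 to 0.259), while *Rbfox2*, whose span covers 319 windows, had 2755 and 3756 (ratio 1.42, 1.35 to 1.49).

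A pair of other broadly expressed gene families was counted in the same way. The 144 genes with ribosomal protein symbols, of which 53 are marked as pseudogenes and 10 encode S6 kinases, had a median log2 ratio of -0.87, and 62 of 90 with more than 21 reads (68.9%) were at least 2-fold lower. The 50 proteasome subunit genes had a median of -0.73, with 17 of 49 (34.7%) at least 2-fold lower. Over all genes with that many reads the share was 13.4%. The splicing genes, with a median of -0.96 and 49.2%, lay between these 2 families by share. Differences between the lists were not tested.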

How the data were processed

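DNase I hypersensitivity was measured in M1 cells with and without IL-6, with 1 library each. Reads were trimmed and aligned to NCBIM37 (mm9) with BWA by the authors, who used Seqmonk to make the table. Its deposited signal is the mean, with the SD, of the 700-bp windows touched by the coding span of each of 55432 transcripts. Windows start at the first base of a chromosome. The windows listed and the deposited numbers of windows agreed in 100% of the rows. Reads were recovered as mean times windows, divided by 1.0 for M1 cells and 1.03816 for IL-6-treated cells, and were within 0.05 of a whole number in 100% of the rows for both libraries. The factor is not explained in the sources used here.

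Each gene is its transcript with the most windows (22605 genes, of which 22592 matched GENCODE M1). Genes count as 2-fold lower or higher from the log2 ratio with 0.5 reads added, given more than 21 reads over the whole span in either library. With 1 library per condition, no test was made. Intervals of single genes and stretches are 95% Clopper-Pearson intervals of the ratio. Intervals of medians, used only to label recomputed values, come from ranks over genes and measure no spread between libraries. The strongest window was bounded from the mean and SD, and stretches were taken from the differences of transcripts sharing window edges. Scripts were tested on simulated windows. The 224 rows of the splicing genes gave 67 genes. The genes and lists were chosen with earlier results of these data known. Named genes are, in each group, the highest M1 mean, largest rise and largest fall among genes with at least 100 reads, the 5 highest and lowest means, those past 2-fold, those at 0 reads, single exceptions to a group and those with a first stretch of 1 to 6 windows. *Snrpd3*, *Snrpf*, *Snrpb2*, *U2af2*, *Sf3a3*, *Sf3b1*, *Sf3b3*, *Prpf31*, *Srsf4*, *Hnrnpul1*, *Hnrpll* and *Hnrnpk*, and the single genes of the other lists, were chosen after their values were seen. Alternatives changed the scaling, the reads added, the fold, the minimum of reads, the transcript and the genes counted. Python 3.11.15, numpy 2.4.6, pandas 2.3.3, scipy 1.17.1 and matplotlib 3.10.9 were used. Start sequences and 32-bp copy numbers were read from NCBIM37. The start sequence of *Srsf12* is not reported here.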

Additional observations from a re-analysis of the deposited data

How the results depend on the processing

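Of 342 values recomputed over 60 results, 270 kept their direction and stayed within their interval (counts within 1.5 times). A further 26 moved and 46 changed sign. For medians that interval comes from ranks over genes and is wide, such as -1.95 to -0.07 for SF3 genes. Leaving the scaling out, or using the total of the spans or the median gene, shifts every log2 ratio by only -0.05, 0.04 or -0.01. Agreement under these scalings was thus nearly fixed in advance and says little. Scaling on strong single windows, added after the data were seen, accounted for 39 of the 46. It gave 0 genes at least 2-fold lower and 27 higher (41.5%, against 84.8% of all genes). The median log2 ratios it gave were 0.87 for all splicing genes, 0.45 for SR, 1.04 for SF3, 1.00 for snRNP, 0.60 for hnRNP, 1.13 for PRPF and 0.65 for U2AF genes, and -0.25 for the first stretches. The log2 ratios it turned were 0.02 for *Prpf38a*, 0.03 for *U2af1l4*, 0.11 for *Srsf7*, 0.15 for *Hnrnpab*, 0.16 for *Snrpg*, 0.19 for *Srsf5*, 0.21 for *Hnrnpa2b1*, 0.24 for *Snrpd2*, 0.27 for *Hnrnpa0*, 0.29 for *Snrpe*, 0.30 for *Hnrnpf*, 0.33 for *Srsf6*, 0.38 for *Hnrnpu*, 0.42 for *Hnrpdl*, 0.45 for *Srsf11*, 0.57 for *Sf3b4*, 0.59 for *Hnrnpd*, 0.60 for *Hnrnpl*, 0.64 for *Prpf19*, 0.64 for *Srsf10*, 0.65 for *U2af1*, 0.65 for *Snrpc*, 0.68 for *Prpf4*, 0.68 for *Hnrnph1*, 0.80 for *Hnrnpc*, 0.81 for *Sf3b2*, 0.93 for *Snrpa*, 1.14 for *Srsf3*, 1.23 for *Srsf9*, 1.55 for *Prpf3*, 1.58 for *Prpf39* and 1.70 for *Sf3a2*. Without scaling, *Hnrnpr* was at -0.03. Taking the transcript with the fewest windows gave 0.09 for *Srsf11*, -1.53 for *Hnrnpr*, 0.75 for *Hnrnpd*, 0.27 for *Srsf9*, 0.65 for *Snrpg* and -0.34 for *Prpf8*, and a median M1 signal of 10.9 reads per window. It had 27 of 59 genes at least 2-fold lower (45.8%, against 14.6% of all genes with transcripts chosen in that way). At 1.5-fold, 46 genes were lower and 1 higher, against 23.2% and 10.8% of all genes. With 50 reads as the threshold, 4 genes had a strong window in IL-6-treated cells. The other scalings, 5 reads added, other minimums of reads and leaving out genes of low uniqueness or shared windows gave 30 to 33 genes at least 2-fold lower. These were 46.2% to 52.5% of the genes counted, where the other scalings gave 12.6% to 14.5% of all genes. No paired analysis was possible because there is only 1 library of each kind, which also means that none could be left out. Depth limits genes under about 21 reads, and the differences may be those of the libraries rather than of the conditions. The causes of these changes were not tested. By construction, the shorter transcripts leave out windows and a scaling factor moves every ratio alike.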
